A study of Mus musculus with 12 samples.

Results

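Globin and red cell genes were followed here through geniculate ganglia, the cranial ganglia that house the cell bodies of taste neurons, as a gauge of blood in the dissected tissue and of the globin switch at embryonic day 14.5. The 8 genes were Hba-x, Hbb-y, Hbb-bh1, Hba-a1, Alas2, Slc4a1, Klf1 and Epb42, of 18193 genes with a probe set of their own on the Affymetrix arrays, and every probe set whose annotation names 1 of them was taken. That gave 18 probe sets, of which 15 are listed for 1 member alone and 3 (1428361_x_at, 1452757_s_at and 1417714_x_at) are listed for Hba-a1 and Hba-a2 together. The 12 arrays fall into 4 groups of 3 that the labels call biological replicates. NT4 knockout ganglia and NT4 wild-type ganglia came from mice on the 129 background, and BDNF knockout ganglia and BDNF wild-type ganglia came from mice on the C57BL/6J background. Strain therefore goes with the line, and the 2 cannot be told apart between lines. The sources used here do not give how many embryos went into an RNA sample or which part of either gene was removed. P-values measure the spread between these samples.

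Mouse embryos make red cells in 2 waves. Primitive red cells arise in the yolk sac, enter the circulation as nucleated cells and make embryonic globins, namely the alpha-like chain of Hba-x and the beta-like chains of Hbb-y and Hbb-bh1. Definitive red cells from the fetal liver then take over and make the adult chains of Hba-a1, Hba-a2 and the adult beta genes, and Hbb-bh1 is known to decline before Hbb-y as primitive cells mature. Alas2 encodes the red cell form of the enzyme that starts heme synthesis, Slc4a1 the anion exchanger band 3 of the red cell membrane, Epb42 the membrane skeleton protein 4.2 that binds band 3, and Klf1 a zinc finger transcription factor that binds CACCC boxes and activates adult beta globin. GATA1, the other main factor of red cell genes, binds sites with a GATA core.

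The upstream sequences of 4 genes are shown because their probe sets, or for Hba-a1 the brightest probe set it shares with Hba-a2, moved together over the arrays of the NT4 line. In the BDNF line this held for all but Alas2, whose relation rested on 2 arrays. They are 250 bases up to the base before the annotated start, 5′ to 3′ on the gene's strand, from RefSeq on build GRCm38.p6: Hba-x chr11:32276350-32276599 (plus strand), Hbb-y chr7:103853208-103853457 (minus strand), Hba-a1 chr11:32283422-32283671 (plus strand) and Alas2 chrX:150547167-150547416 (plus strand). Capitals mark 4 motifs searched on both strands: GATAA for the GATA site, CACCC for the box that Klf1 binds, CCAAT for the promoter element of that name and TATAA for the TATA box.
Hba-x: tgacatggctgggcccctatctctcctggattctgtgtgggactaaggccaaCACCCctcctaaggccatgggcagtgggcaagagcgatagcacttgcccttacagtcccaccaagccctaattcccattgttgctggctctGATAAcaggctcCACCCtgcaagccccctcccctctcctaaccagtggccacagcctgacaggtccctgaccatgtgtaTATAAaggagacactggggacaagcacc
Hbb-y: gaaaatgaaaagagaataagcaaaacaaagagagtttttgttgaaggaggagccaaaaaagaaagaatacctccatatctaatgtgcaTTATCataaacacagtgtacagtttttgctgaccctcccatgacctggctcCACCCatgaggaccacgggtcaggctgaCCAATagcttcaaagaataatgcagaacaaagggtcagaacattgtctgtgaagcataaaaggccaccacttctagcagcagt
Hba-a1: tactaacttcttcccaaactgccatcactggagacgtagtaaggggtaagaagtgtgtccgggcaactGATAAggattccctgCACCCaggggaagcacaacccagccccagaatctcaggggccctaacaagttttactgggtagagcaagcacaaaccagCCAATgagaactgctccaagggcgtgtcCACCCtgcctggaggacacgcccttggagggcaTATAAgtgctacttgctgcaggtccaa
Alas2: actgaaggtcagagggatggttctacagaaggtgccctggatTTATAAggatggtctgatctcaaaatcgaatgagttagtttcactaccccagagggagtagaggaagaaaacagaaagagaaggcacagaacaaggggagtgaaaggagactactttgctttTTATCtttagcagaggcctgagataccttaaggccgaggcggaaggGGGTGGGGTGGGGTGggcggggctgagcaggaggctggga

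Upstream sequence was matched for 6 of the 8 genes. The GATA motif stood in 6 of these 6, the CACCC box in 5, the TATAA letters in 4 and CCAAT in 3. In Epb42 the TATAA letters lay on the opposite strand, 125 bases before the start. Among 32851 promoters of the same length, 22.6% held the GATA motif, 52.0% the CACCC box, 22.8% the TATAA letters and 33.8% CCAAT. Motifs this short thus also occur in many other promoters, and whether the members hold them more often was not tested. Hba-x held GATAA 107 bases before the start, CACCC at 198 and 95, and TATAA at 28. Hba-a1 held GATAA at 182, CACCC at 167 and 60, CCAAT at 88 and TATAA at 27. In Hbb-y the GATAA letters lay on the opposite strand at 162, CACCC at 111 and CCAAT at 83. Alas2 held GATAA on the opposite strand at 86 and a run of 3 adjacent CACCC matches on the opposite strand at 40, 35 and 30, and its TATA letters are 1 overlapping stretch counted on both strands, at 208 and 207. A match of letters is not a bound site. Hba-a1 and Hba-a2 were identical at 297 of 297 compared bases around their starts, which shows how alike these copies are.

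Of the ganglion neuron markers, Tubb3, Prph, Snap25 and the taste afferent receptor subunit P2rx3 were bright on all arrays, whereas the transcription factor Tlx3 averaged 344 in NT4 knockout, 297 in NT4 wild-type, 52.6 in BDNF knockout and 60.6 in BDNF wild-type ganglia, the BDNF line's values lying under the median of every array. In 129 against C57BL/6J wild types 3 of the 13 passed, in a comparison in which 13.9% of all probe sets passed. They were the transcription factors Tlx3 (2.32), Phox2a (-1.55) and Pou4f1 (-1.46 on 1429667_at). The other Pou4f1 probe set differed by 0.64 (adjusted p = 0.123). The summed intensity of 13 measured ganglion neuron markers was 75521 to 84309 in NT4 knockout, 78658 to 85967 in NT4 wild-type, 85241 to 89700.3 in BDNF knockout and 86065 to 91759 in BDNF wild-type ganglia. Array medians lay between 168 and 201. The log2 excess of Xist over averaged Y-linked genes was 7.92 in NT4 wild-type replicate 2 and 8.09 in BDNF wild-type replicate 2, and between 2.79 and 5.09 elsewhere, so those 2 arrays differ in sex-linked genes. Values are the deposited linear intensities. Differences and their standard errors (SE) are on the log2 scale from limma fitted over 45037 probe sets, with p-values adjusted by the Benjamini-Hochberg method over all of them and a threshold of 0.05. The level of each probe set is compared only with itself between arrays, because probe sets differ in how well they bind.

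No change of these genes was detected after loss of NT4 or of BDNF. In the NT4 line 0 of 18 probe sets passed, and 0 had an unadjusted p under 0.05, in a comparison in which 0.00444% of all probe sets passed and 5.62% had such a p. In the BDNF line 0 of 18 passed and 0 had an unadjusted p under 0.05, beside 0.0178% and 6.72% of all. The median log2 change of the 18 probe sets was -0.01 in NT4 knockout against NT4 wild-type ganglia, with 9 above 0 and 9 below, where the median of all probe sets was 0.05. It was -0.10 in BDNF knockout against BDNF wild-type ganglia, with 6 above 0 and 12 below, where the median of all was -0.02. The difference between the 2 knockout effects passed for 0 of 18 as well (0.0111% of all), and 0 had an unadjusted p under 0.05 (5.84% of all). The authors' deposited table of changed probe sets held 0 member probe sets for BDNF and 0 for NT4, in lists that hold 1.48% and 1.49% of all probe sets, so that a count of 0 of 18 is near the background.

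Hba-x (1448716_at), the embryonic alpha-like chain, read 1913, 6142 and 2088 in NT4 knockout ganglia and 1815, 3756 and 2203 in NT4 wild-type ganglia. It read 3649, 5383 and 2301 in BDNF knockout ganglia and 3933, 4767 and 4087 in BDNF wild-type ganglia. The highest array of each group was its replicate 2, and each knockout overlapped its wild type. The group means were 3381 ± 2393 in NT4 knockout, 2591 ± 1027 in NT4 wild-type, 3778 ± 1545 in BDNF knockout and 4262 ± 444 in BDNF wild-type ganglia (SD, n = 3 each). From the highest mean to the lowest the order was BDNF wild type, BDNF knockout, NT4 knockout and NT4 wild type, and arrays of neighbours in this order overlapped. The log2 change was 0.24 in the NT4 line (SE 0.46, adjusted p = 0.981) and -0.25 in the BDNF line (SE 0.46, adjusted p = 0.993). The 95% intervals of these changes, -0.78 to 1.26 and -1.27 to 0.77, are wide, so changes inside them are not excluded with 3 arrays a group. Without NT4 knockout replicate 2 the change in the NT4 line was -0.30. In bulk tissue fewer red cells and less of a transcript per red cell cannot be told apart.

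**Figure D1:**
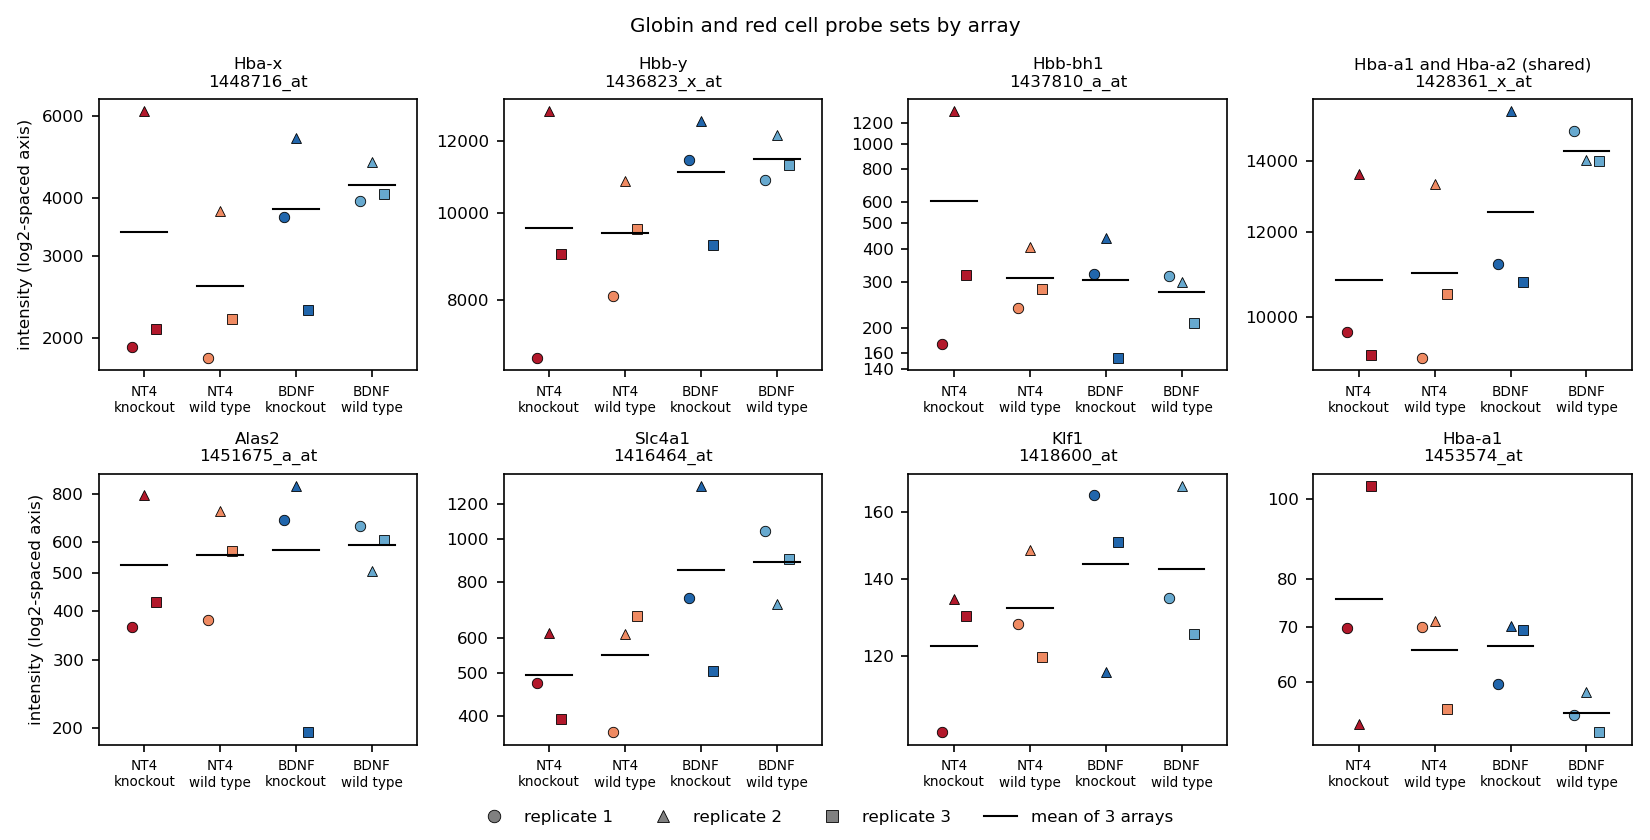
Intensity of 8 probe sets on the 12 arrays, with a log2-spaced vertical axis scaled separately for each probe set; symbols are replicates and lines are means of 3 arrays. Replicate 2 is the highest array of every group for Hba-x and Hbb-y, NT4 knockout replicate 2 stands alone for Hbb-bh1 at 1332, and BDNF knockout replicate 3 is the lowest array for Alas2 at 195.

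Hbb-y, the embryonic beta-like chain that persists longest in primitive cells, was read by 3 probe sets with the same pattern. The brightest (1436823_x_at) gave 6901, 12955 and 9003 in NT4 knockout ganglia, against 8088, 10831 and 9584 in NT4 wild-type ganglia. In BDNF knockout ganglia it gave 11441, 12646 and 9215, against 10874, 12188 and 11295 in BDNF wild-type ganglia. Replicate 2 was again the highest array of each group, and the NT4 knockout arrays lay on both sides of all their wild-type arrays. Log2 changes over the 3 probe sets were -0.02, -0.02 and -0.03 in the NT4 line and -0.06, -0.05 and -0.10 in the BDNF line, with adjusted p of 0.993 to 0.999. The order of group means for 1436823_x_at was BDNF wild type (11452 ± 671), BDNF knockout (11101 ± 1740.5), NT4 knockout (9619.9 ± 3074) and NT4 wild type (9501 ± 1373), again with overlapping neighbours (SD, n = 3 each).

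Hbb-bh1, the embryonic beta-like chain that fades first, had the widest fold range of the members. Its brightest probe set (1437810_a_at) read 174, 1332 and 318 in NT4 knockout ganglia and 238, 406 and 281 in NT4 wild-type ganglia. It read 320, 440.0 and 154 in BDNF knockout ganglia and 315, 299 and 208 in BDNF wild-type ganglia. NT4 knockout replicate 2 thus lay far above the other 11 arrays, none of which exceeded 440.0. The other 2 Hbb-bh1 probe sets showed the same single high array, at 1446 (1437990_x_at) and 656 (1450736_a_at), and next to it 374 and 247 at most. Across the 12 arrays the highest value was 8.64, 16.9 and 8.14 times the lowest on the 3 probe sets, compared with 3.38 times for Hba-x and 1.88 times for 1436823_x_at of Hbb-y. These probe sets differ in brightness, with means of 374, 318 and 202 for Hbb-bh1, 3503 for Hba-x and 10418.5 for 1436823_x_at. Whether brightness limits the fold range was not tested. The log2 change of 1437810_a_at in the NT4 line was 0.48 (SE 0.64, adjusted p = 0.975) with that array and -0.35 without it. In the BDNF line it was 0.05 (SE 0.64, adjusted p = 0.999), so neither direction is given.

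The adult alpha chains were read mainly by the probe sets shared between Hba-a1 and Hba-a2. The brightest, 1428361_x_at, gave 9683, 13598 and 9213 in NT4 knockout ganglia, against 9164, 13309 and 10517 in NT4 wild-type ganglia. In BDNF knockout ganglia it gave 11219, 15569 and 10780.3, against 14907, 14016 and 13995 in BDNF wild-type ganglia. Replicate 2 was the highest array of 3 groups, and 2 of the 3 BDNF knockout arrays lay below all BDNF wild-type arrays while the other lay above them. The BDNF change was -0.21 (SE 0.20, adjusted p = 0.951) and the NT4 change -0.03 (SE 0.20, adjusted p = 0.993). The highest array was 1.70 times the lowest on this probe set, 1.47 times on 1452757_s_at and 1.22 times on 1417714_x_at.

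The probe set listed for Hba-a1 alone (1453574_at) differed from the shared ones in its pattern. It read 69.8, 53.3 and 104 in NT4 knockout ganglia and 69.9, 71.0 and 55.6 in NT4 wild-type ganglia, and 59.6, 70.2 and 69.3 in BDNF knockout ganglia and 54.7, 58.3 and 52.1 in BDNF wild-type ganglia. All of these lie under the median of every array, and the highest reading fell on an array where the shared probe sets were low. Every BDNF knockout array exceeded every BDNF wild-type array, the only 1 of 18 member probe sets whose BDNF groups did not overlap, where 10.6% of all probe sets did not overlap. The log2 change was 0.27 (SE 0.21, adjusted p = 0.924). In the NT4 line 0 of 18 were free of overlap, beside 12.1% of all.

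Alas2 (1451675_a_at), which starts heme synthesis in red cells, read 364, 795 and 421 in NT4 knockout ganglia and 379, 721 and 571 in NT4 wild-type ganglia. It read 685, 839 and 195 in BDNF knockout ganglia and 661, 508 and 609 in BDNF wild-type ganglia. The BDNF knockout arrays held both the highest and the lowest of the 12 values. The log2 change in the BDNF line was -0.29 (SE 0.51, adjusted p = 0.993) and 0.36 without BDNF knockout replicate 3, while in the NT4 line it was -0.12 (SE 0.51, adjusted p = 0.988).

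Band 3 (Slc4a1, 1416464_at) read 475, 614 and 394 in NT4 knockout ganglia and 367, 611 and 671.6 in NT4 wild-type ganglia. It read 736, 1319 and 505 in BDNF knockout ganglia and 1043, 716 and 905 in BDNF wild-type ganglia. The groups of each line overlapped, and BDNF knockout replicate 2 was the highest of all arrays. The change was -0.13 in the NT4 line (SE 0.35, adjusted p = 0.984) and -0.15 in the BDNF line (SE 0.35, adjusted p = 0.997), the second moving to -0.53 without BDNF knockout replicate 2. A second probe set, 1434502_x_at, differed by -0.09 and -0.13, and the dimmer 1431743_a_at by 0.00 and 0.10.

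Klf1 (1418600_at), the transcription factor, had the narrowest fold range among the single-probe-set genes, at a mean of 135 that lies under every array median. It read 103, 135 and 130 in NT4 knockout ganglia and 128, 148 and 120 in NT4 wild-type ganglia, and 165, 116 and 151 in BDNF knockout ganglia and 135, 169 and 125 in BDNF wild-type ganglia. All 4 groups overlapped. The highest array was 1.64 times the lowest, and the log2 changes were -0.11 (SE 0.18, adjusted p = 0.979) in the NT4 line and 0.01 (SE 0.18, adjusted p = 0.999) in the BDNF line.

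**Figure D2:**
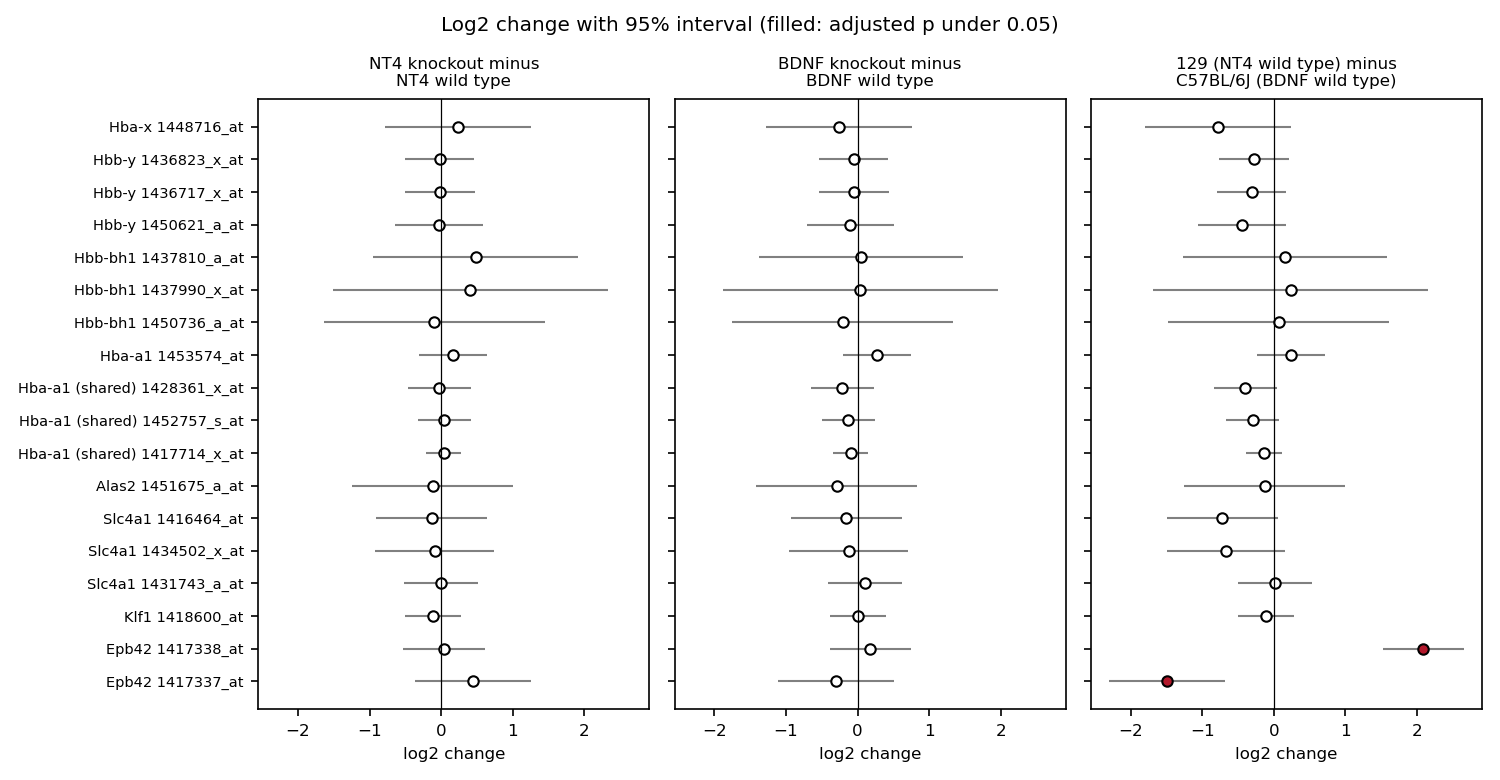
Log2 change of each of the 18 probe sets in 3 comparisons, with 95% intervals from limma; filled points passed an adjusted p of 0.05 over all probe sets. Both knockout panels hold open points with intervals across 0, and the panel of 129 minus C57BL/6J wild types has filled points only for Epb42, at 2.09 and -1.50.

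The wild types were compared next, 129 against C57BL/6J. In 129 (NT4 wild-type) against C57BL/6J (BDNF wild-type) ganglia 2 of 18 member probe sets passed, both of Epb42, which is 11.1% where 13.9% of all probe sets passed. A further pattern is of arrays that do not overlap: 10 of 18 were free of overlap (55.6%, beside 33.6% of all), 9 with all 129 arrays lower (beside 19.3% of all) and 1 with all 129 arrays higher (beside 14.3%). The 9 were Hba-x, the 3 probe sets of Hbb-y, 1428361_x_at and 1452757_s_at of the adult alpha pair, 1416464_at and 1434502_x_at of Slc4a1, and 1417337_at of Epb42. Probe sets of blood genes that move together on an array are not independent of each other.

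None of the globins passed between the wild types. Hba-x averaged 2591 in 129 and 4262 in C57BL/6J wild-type ganglia, a log2 difference of -0.78 (SE 0.46, adjusted p = 0.343). The 3 Hbb-y probe sets differed by -0.28, -0.31 and -0.44 (adjusted p 0.383 to 0.501), and 1428361_x_at by -0.40 (SE 0.20, adjusted p = 0.260). Slc4a1 differed by -0.72 (SE 0.35, adjusted p = 0.238) and -0.67 (SE 0.37, adjusted p = 0.318). Alas2 (-0.13) and Klf1 (-0.11) had smaller values, with adjusted p of 0.917 and 0.777, and Hbb-bh1 differed by 0.16, 0.24 and 0.07 (adjusted p 0.911 to 0.971). The median over the 18 was -0.21, and -0.04 over all probe sets. The Hba-x difference ran from -1.09 to -0.56 when single wild-type arrays were left out.

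Epb42 was the exception in size. Its brighter probe set (1417338_at) read 174, 221 and 176 in 129 wild-type ganglia, against 43.3, 50.1 and 40.3 in C57BL/6J wild-type ganglia. The knockouts followed their strains, with 269, 123 and 219 in NT4 knockout ganglia and 58.5, 50.6 and 42.9 in BDNF knockout ganglia, so that all 6 arrays of the 129 line lay above all 6 arrays of the C57BL/6J line. The wild types differed by 2.09 (SE 0.26, adjusted p = 0.000223), a ratio of 4.26, and the adjusted p stayed between 2.66e-05 and 0.00157 when single arrays were left out. The other probe set, 1417337_at, went the opposite way: 4.60, 6.72 and 6.21 in 129 and 13.6, 15.4 and 20.7 in C57BL/6J wild-type ganglia, a difference of -1.50 (SE 0.36, adjusted p = 0.0189). On each array 5.87% to 7.91% of probe sets read under 20, so these are among the dimmest values measured, and the call was lost in several alternative fits. Since the 2 probe sets disagree, no direction is given for Epb42 as a gene.

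**Figure D3:**
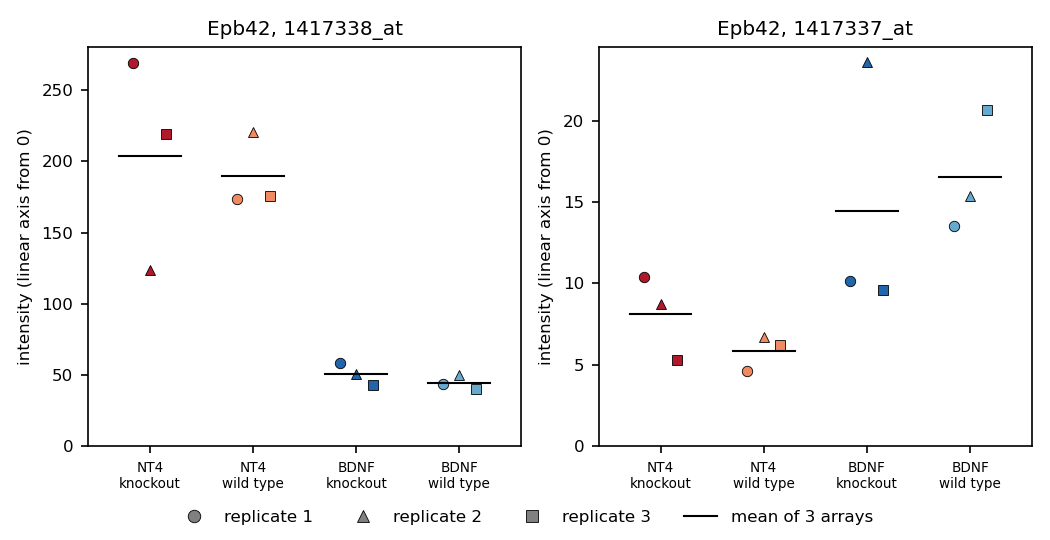
Intensity of the 2 Epb42 probe sets on the 12 arrays, on linear axes from 0; symbols are replicates and lines are means of 3 arrays. On 1417338_at both groups of the 129 line, at 123 to 269, lie above both groups of the C57BL/6J line, at 40.3 to 58.5, while on 1417337_at the 129 wild-type arrays, at 4.60 to 6.72, lie below the C57BL/6J wild-type arrays, at 13.6 to 20.7.

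Epb42 lies on chromosome 2, as does Bdnf, with Epb42 104 measured genes away. Its probe set 1417338_at averaged 50.7 ± 7.82 in BDNF knockout and 44.6 ± 4.98 in BDNF wild-type ganglia (SD, n = 3 each), a change of 0.18 (SE 0.26, adjusted p = 0.983), well under the 204 and 190.1 of the NT4 knockout and NT4 wild-type groups.

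By Pearson correlation, embryonic globins varied together over the arrays of the NT4 line, and in the BDNF line Hba-x and Hbb-y did. By Spearman's rho, 0 of the 16 relations had an adjusted exact permutation p under 0.05. Within the NT4 line the log2 values of Hba-x correlated over the 6 arrays with Hbb-y (Pearson r = 0.907), Hbb-bh1 (0.943), 1428361_x_at (0.938) and Alas2 (0.909), each with an adjusted exact permutation p of 0.0222 over 16 relations. Spearman's rho was 0.943, 0.886, 0.943 and 0.943, with adjusted exact p of 0.0889, 0.133, 0.0889 and 0.0889. Without the 2 arrays farthest from the median of Hba-x, the replicate 2 arrays of both genotypes, r was 0.752, 0.626, 0.673 and 0.872. In the BDNF line r was 0.973 for Hbb-y (adjusted exact p = 0.0222, rho 0.829 with adjusted p = 0.156) and 0.836 for 1428361_x_at (adjusted exact p = 0.0333, rho 0.829 with adjusted p = 0.156). Without BDNF knockout replicates 2 and 3 these were 0.729 and 0.545.

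The remaining members tracked Hba-x less. In the BDNF line Alas2 had r = 0.866 (adjusted exact p = 0.114), which turned to -0.986 without BDNF knockout replicates 2 and 3 and so rests on those arrays. Hbb-bh1 (0.835, adjusted exact p = 0.111) and Slc4a1 (0.810, adjusted exact p = 0.114) also rest on them, with -0.14 and -0.30 once they are left out. In the NT4 line Slc4a1 had r = 0.614 (adjusted exact p = 0.297). Klf1 had r = 0.590 in the NT4 line and -0.350 in the BDNF line, Epb42 (1417338_at) -0.627 and 0.308, and Hba-a1 (1453574_at) -0.476 and -0.214, with adjusted exact p of 0.297 to 0.728. Over the relations of this paragraph rho was -0.371 to 0.771, with adjusted exact p of 0.235 to 1.0. The points of each relation share an array, hence 1 RNA sample, 1 amplification and 1 hybridization.

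**Figure D4:**
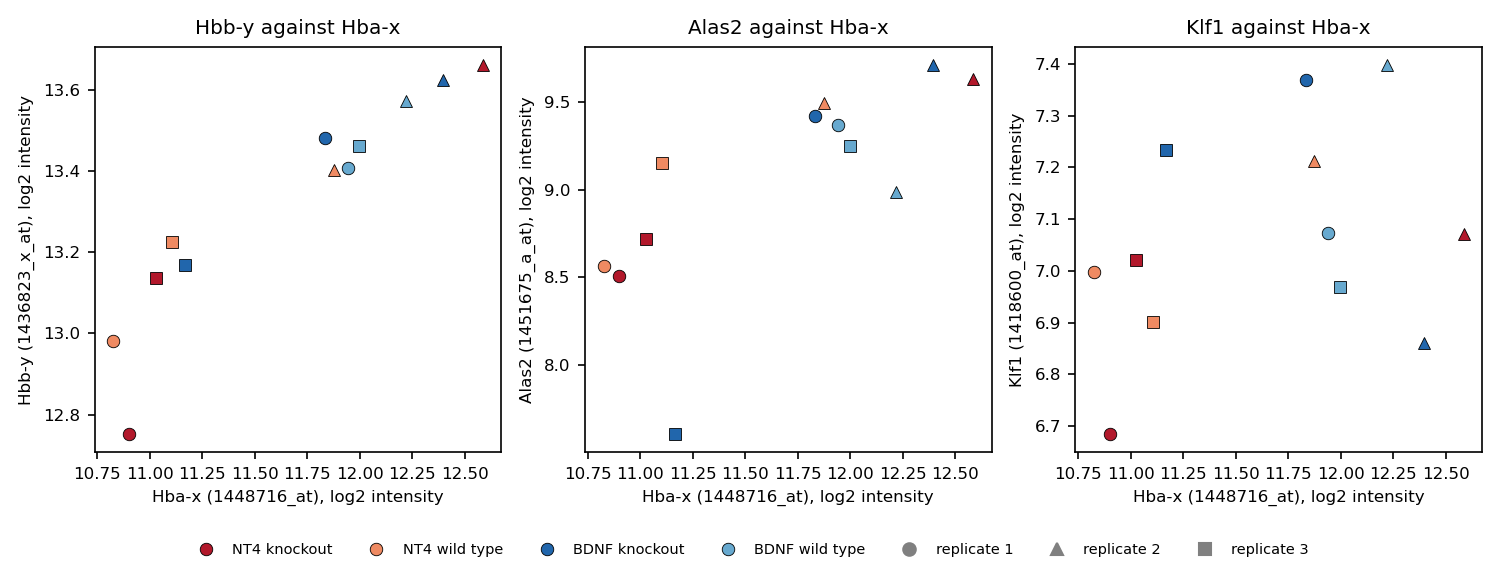
Log2 intensity of Hbb-y, Alas2 and Klf1 against that of Hba-x on the 12 arrays, coloured by group, with symbols for replicates. Hbb-y climbs with Hba-x in both lines, Alas2 does so in the NT4 line but among the BDNF line's arrays only through the low BDNF knockout replicate 3 and the high BDNF knockout replicate 2, and Klf1 shows no common slope.

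Replicate 2 was the highest array in 4 of 4 groups for 6 of the 18 member probe sets, those of Hba-x, all 3 of Hbb-y, 1437990_x_at of Hbb-bh1 and 1452757_s_at, and for 0.686% of all probe sets. For replicate 1 and for replicate 3 the count was 0 of 18, beside 0.79% and 1.88% of all. The sources used here do not say whether a replicate number marks a shared litter, day or batch. The Xist excess was also highest on replicate 2 in 4 of 4 groups, at 5.09 in NT4 knockout, 7.92 in NT4 wild-type, 4.65 in BDNF knockout and 8.09 in BDNF wild-type ganglia, and the part of this in the result was not tested. The summed white blood cell markers (10 of 10 measured) ran from 1047 to 1390.1 in NT4 knockout, 753 to 877 in NT4 wild-type, 870.2 to 2999 in BDNF knockout and 927 to 1060 in BDNF wild-type ganglia. The 2999 was BDNF knockout replicate 1, where Hba-x was 3649.

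Deviations from the group means were averaged over the 8 genes on each array, and other genes were ranked by their correlation with that average over the 12 arrays, as a description. Among the members themselves Hba-x (r = 0.939), Alas2 (0.933), Hbb-y (0.921), Hbb-bh1 (0.913) and Slc4a1 (0.753) carried the average, whereas Klf1 (0.200), Epb42 (-0.203) and Hba-a1 by its own probe set (-0.286) did not. Each member is itself part of the average, so a high r is partly built in for those that vary most. The 5 genes most like it were Dnajc30 (0.967), Frmd4b (0.943), Gpc6 (0.904), Per2 (0.903) and Zfp995 (0.872), chosen from all measured genes of at least median brightness. The top of so long a ranking over 12 arrays is high in any case. No chance level was set for it, so no shared source is drawn from these genes. Dnajc30 read 663, 1006 and 779 in NT4 knockout, 757, 931 and 878 in NT4 wild-type, 1071, 1200.4 and 685 in BDNF knockout and 988, 943 and 875 in BDNF wild-type ganglia, with replicate 2 highest in 3 of the groups.

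The balance of embryonic to adult chains was taken on each array as the log2 intensity of an embryonic probe set minus that of an adult one. It carries an unknown offset from the probes and is read only between arrays. It is not a measure of the share of primitive or definitive red cells. Whether the bright adult probe sets respond over the same range as the embryonic ones was not tested. For the alpha cluster, Hba-x minus 1428361_x_at was -2.34, -1.15 and -2.14 in NT4 knockout, -2.34, -1.83 and -2.26 in NT4 wild-type, -1.62, -1.53 and -2.23 in BDNF knockout and -1.92, -1.56 and -1.78 in BDNF wild-type ganglia. NT4 knockout replicate 2, the array with the high Hbb-bh1, had the most embryonic alpha balance of the 12. The means were -1.88 ± 0.64 in NT4 knockout against -2.14 ± 0.27 in NT4 wild-type ganglia, and -1.79 ± 0.38 in BDNF knockout against -1.75 ± 0.18 in BDNF wild-type ganglia (SD, n = 3 each). The knockout differences of 0.26 and -0.04 were smaller than the spread between replicates, and the first was -0.10 without NT4 knockout replicate 2.

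For the beta cluster, Hbb-y (1450621_a_at, the probe set without the suffix of possible matches to related genes) was set against 1417184_s_at, which is listed for the 4 adult genes Hbb-bt, Hbb-bs, Hbb-b2 and Hbb-b1. The difference was -1.36, -0.55 and -0.94 in NT4 knockout, -1.12, -0.84 and -0.90 in NT4 wild-type, -0.44, -0.63 and -0.90 in BDNF knockout and -0.86, -0.52 and -0.78 in BDNF wild-type ganglia. Here BDNF knockout replicate 1 was highest, and NT4 knockout replicate 2 lay below it and below BDNF wild-type replicate 2. The means were -0.95 ± 0.41 in NT4 knockout and -0.95 ± 0.15 in NT4 wild-type, and -0.66 ± 0.23 in BDNF knockout and -0.72 ± 0.18 in BDNF wild-type ganglia (SD, n = 3 each). The knockout differences were 0.00 in the NT4 line and 0.06 in the BDNF line, and the first was -0.20 without NT4 knockout replicate 2. With other adult probe sets the first was 0.05 for the bright 1427865_at and -0.25 for 1427866_x_at, which read under every array median. In 129 against C57BL/6J wild types the balance differed by -0.39 for alpha and -0.23 for beta, with 1 array of the 129 group overlapping the C57BL/6J range for alpha and for beta. The adult beta haplotype is known to differ between these mouse strains, so 1417184_s_at may not read both alike, and its own strain difference was -0.21 (SE 0.15, adjusted p = 0.456).

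**Figure D5:**
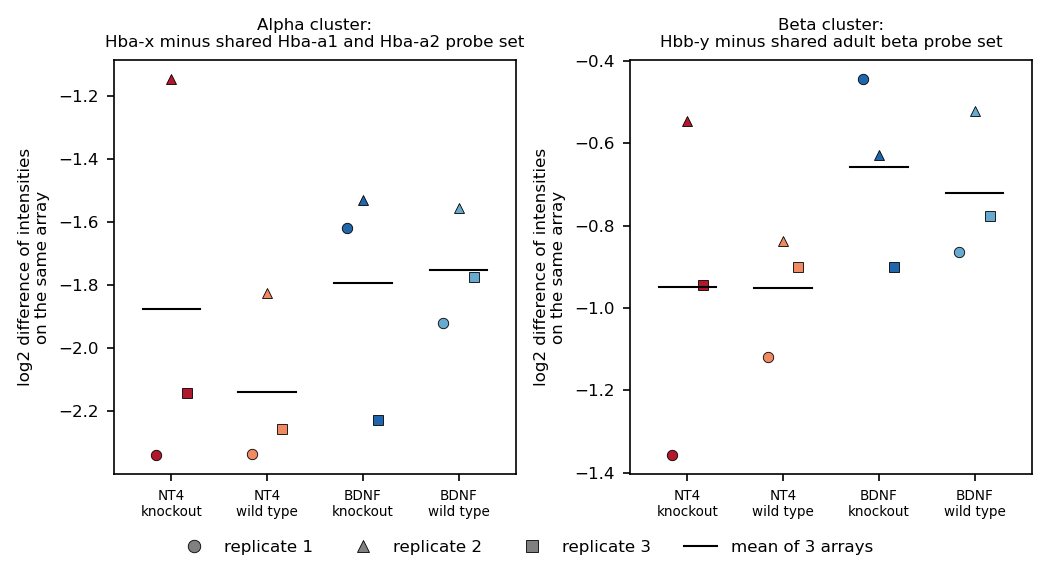
Embryonic minus adult globin signal on each array (log2 difference of intensities), for the alpha cluster and the beta cluster, with symbols for replicates and lines for means of 3 arrays. The groups overlap in each line, and NT4 knockout replicate 2 has the highest alpha balance at -1.15.

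Beyond the 8 genes, 57 genes of 6 red cell lists were measured by a probe set of their own, and 0 of them passed in either knockout comparison. In NT4 knockout against NT4 wild-type ganglia 32 were above 0 and 25 below (56.1% above, beside 58.7% of all probe sets), and 2 had an unadjusted p under 0.05 (3.51%, beside 5.62% of all). These were Gata1 (0.73, adjusted p = 0.857) and Rhd (-0.44, adjusted p = 0.885), a central transcription factor of red cells and a membrane protein of the Rh complex. Gata1 was dim, with a mean of 69.8 over the 12 arrays, under every array median. In BDNF knockout against BDNF wild-type ganglia 17 were above 0 and 40 below (70.2% below, beside 55.2% of all probe sets), and 5 had an unadjusted p under 0.05 (8.77%, beside 6.72% of all). Those were Ldb1 (-0.49), a cofactor that bridges GATA1 complexes, and 4 membrane genes, namely Icam4 (-1.0), Ank1 (-0.61), Rhd (-0.49) and Mpp1 (-0.39), with adjusted p of 0.565 to 0.683. By list, the 16 membrane and skeleton genes had a median of 0.11 in the NT4 line and -0.25 in the BDNF line, the 14 heme and iron genes -0.06 and -0.02, and the 11 enzymes and late markers -0.01 and -0.07. The 8 transcription factor and receptor genes had -0.05 and -0.13, the 6 regulators of the globin switch 0.16 and -0.19, and the 2 other globins -0.01 and -0.07. Means over the 12 arrays included 5739 for Add2 and 2153 for Ldb1, but 4.34 for Rhag and 41.6 for Tal1, under every array median. The cells that these transcripts came from cannot be told apart in bulk tissue, so the lists need not gauge blood alone.

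Regulators of the switch included Myb, whose probe set (1421317_x_at) swung widely inside groups, reading 1024, 144 and 260 in NT4 knockout, 67.9, 63.4 and 153 in NT4 wild-type, 161, 124 and 63.1 in BDNF knockout and 140, 1476 and 202 in BDNF wild-type ganglia. A high array in NT4 knockout and 1 in BDNF wild type carried its log2 changes of 1.95 (adjusted p = 0.894) and -1.68 (adjusted p = 0.828). Bcl11a, the repressor of embryonic globins, differed by 0.24 and -0.21 (adjusted p 0.920 and 0.875), and Sox6, its partner, by 0.53 in the NT4 line (adjusted p = 0.932). In NT4 knockout ganglia the high Myb array was replicate 1, while Hba-x and Hbb-y were highest on replicate 2. In BDNF wild-type ganglia Myb, Hba-x and Hbb-y were all highest on replicate 2, but 1437810_a_at of Hbb-bh1 and the shared adult alpha probe set 1428361_x_at were highest on replicate 1.

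Between the wild types 5 of the 57 passed (8.77%, beside 13.9% of all probe sets). The fall in 129 ganglia was deepest for Abcb10 (1416402_at), a mitochondrial transporter of developing red cells, at 301 ± 13.3 in 129 and 1633 ± 29.8 in C57BL/6J wild-type ganglia (SD, n = 3 each; -2.44, SE 0.11, adjusted p = 2.33e-07), but its other probe sets differed by 0.26 and 0.11. The probe set of Kel, the Kell blood group protein, read 29.6 in 129 and 116 in C57BL/6J wild-type ganglia (-2.09, adjusted p = 0.00559). That of Tal1, a transcription factor of blood formation, read 32.4 in 129 and 49.2 in C57BL/6J (-0.60, adjusted p = 0.0415). Nfe2, a subunit of a factor that binds globin control regions, read 163 in 129 and 60.3 in C57BL/6J (1.45, adjusted p = 0.00447). Alad, the next enzyme after Alas2 in heme synthesis, read 614 in 129 and 478 in C57BL/6J (0.36, adjusted p = 0.0428). Kel, Tal1 and Nfe2 rest on 1 probe set each, with wild-type means under every array median. The directions were mixed, with 22 above 0 and 35 below over the 57.

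Markers of the other cell types of blood and of vessels gave 0 calls in the knockout comparisons. The 10 macrophage markers had a median of 0.70 in NT4 knockout against NT4 wild-type ganglia, all 10 above 0, and 0.31 in the BDNF line, 9 above 0. Tyrobp (1.24, adjusted p = 0.596) and Csf1r (1.36, adjusted p = 0.796) had the lowest p in the NT4 line, and Csf1r (1.38, adjusted p = 0.428) in the BDNF line. The medians in the NT4 and BDNF lines were 0.33 and 0.14 for the 10 white cell markers, 0.17 and 0.05 for the 9 platelet and megakaryocyte markers, 0.13 and 0.04 for the 11 endothelial markers, and -0.04 and -0.03 for the 13 neuron markers. Their part in the red cell values was not tested.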

How the data were processed

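RNA of geniculate ganglia was column-extracted, treated with DNase I, amplified with a WT-Ovation Pico kit and put on 12 Affymetrix arrays, per the labels. The authors deposited 1 linear intensity per probe set and array, and the sources used here do not give how they summarised, background-corrected and scaled it. The log2 of each intensity was taken without an offset or filter. The authors also deposited 2 lists of chosen probe sets with a signed fold change (a score) and an unadjusted p-value, per the file headers, used here only to look up the members, and 12 per-sample columns of those lists were not used. Precision is limited by the number of arrays.

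Of 45101 probe sets 64 array controls were left out. The annotation gave 1 symbol to 34945, several to 932 and none to 9160, and 34741 of those with 1 symbol were found in RefSeq's gene table for GRCm38.p6. Group means over 12 arrays were estimated by limma 3.58.1 under R 4.3.3 (lmFit, eBayes, residual degrees of freedom 8, prior 2.27), and two-sided tests covered 4 contrasts: each knockout against its wild type, the wild types against each other, and the difference of the knockout effects. The fit was tested on simulated data. Correlations used exact two-sided permutation tests. All member probe sets are named, and of 11 other lists (110 genes measured) up to 4 genes by unadjusted p, each by its brightest probe set. Some further list genes are named for their brightness or for the array where they were highest, and were picked with those values in view. Of the 18 member probe sets 18 were tested. Members and lists were chosen with earlier results of these data known. Alternatives were other scalings, an offset of 16, a filter at a mean of 50, only the arrays compared, a replicate block, arrays left out and an intensity trend.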

Additional observations from a re-analysis of the deposited data

How the results depend on the processing

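With 3 arrays a group the median SE of a log2 change was 0.20 over all probe sets. Among the member probe sets it ran from 0.11 (1417714_x_at) to 0.86 (1437990_x_at of Hbb-bh1), with 0.46 for Hba-x and 0.51 for Alas2. Changes of blood genes inside their 95% intervals are not excluded. The counts of 0 in both knockout comparisons and in the difference of effects were 0 under every alternative run. Of 1418 member values under alternatives, 136 had another sign than reported, none past the threshold either way, and 4 lost a call, all of 1417337_at of Epb42. In 129 against C57BL/6J wild types the count of 2 was 1 after the dim filter, 1 without the pair of high-Xist arrays, and 1 to 2 when single arrays were left out. Epb42 1417337_at then had an adjusted p of 0.0792 without the Xist arrays, 0.0772 without NT4 wild-type replicate 1 and 0.0720 without BDNF wild-type replicate 3, and the dim filter removed it. Epb42 1417338_at passed throughout. The globin balance moved with the adult probe set. For alpha in the BDNF knockout it was -0.52 with 1453574_at, and for alpha in 129 against C57BL/6J -0.65 with 1417714_x_at, -0.68 with 1427219_at and -1.03 with 1453574_at. For beta in the BDNF knockout it was -0.15 with 1427866_x_at, opposite in sign to the 0.06 reported, and in the NT4 knockout -0.25 with it, against 0.00. That probe set was dim, at 51.3 to 89.9, under every array median. With the bright adult probe set 1427865_at the beta balance was 0.05 in the BDNF knockout and 0.05 in the NT4 knockout. The cause of the shifts between probe sets was not tested. Centring arrays on their medians shifted the median of all probe sets in the NT4 line to -0.07 from 0.05 and that of the members to -0.12 from -0.01.

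With the replicate number as a block within each line, the count was 0 in the NT4 line, 0 in the BDNF line, 0 for the difference of effects and 1 between the wild types, where 1417337_at had an adjusted p of 0.0588. Deviations of same-numbered knockout and wild-type arrays correlated at -0.162 to 0.0986, which is not over 0.1 for every pair, so the numbers were not used as pairs. Whether a number marks something shared is not settled by this, and the mean deviation of the member probe sets was above 0 on replicate 2 of all 4 groups (0.41 in NT4 knockout, 0.30 in NT4 wild-type, 0.35 in BDNF knockout and 0.05 in BDNF wild-type ganglia).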

Other observations

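Some markers of platelets and white blood cells were highest on an array where the globins were not. Of the measured markers, 3 of 9 for platelets and 5 of 10 for white blood cells were highest of the 12 arrays on BDNF knockout replicate 1. The others, among them Itga2b, Gp9, Ptprc and Lyz2, were highest elsewhere. NT4 knockout replicate 3 was likewise the highest array for 3 of the 9 platelet markers, and for 2 of the 10 white blood cell markers. The platelet count thus does not set BDNF knockout replicate 1 apart. BDNF knockout replicate 1 read 988 for the platelet chemokine gene Pf4 and 370.2 for Ppbp, another platelet chemokine, against at most 431 and 48.3 on the other 11 arrays. The same array read 979 for S100a9 and 747 for S100a8, calcium-binding proteins of neutrophils, and 429 for the granule enzyme Mpo. The largest values elsewhere were 469, 334 and 174. As group means, Pf4 averaged 482 ± 441 in BDNF knockout and 189 ± 64.5 in BDNF wild-type ganglia (SD, n = 3 each), a log2 change of 1.03 (adjusted p = 0.846), and S100a9 had 1.74 (adjusted p = 0.624). Hba-x, Hbb-y and Alas2 were not at their highest on that array, where they read 3649, 11441 and 685.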
